A study of Mus musculus with 3 samples.

Results

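The genes described here are the collagens and the core glycoproteins and proteoglycan of the extracellular matrix: every protein-coding mouse gene with a collagen symbol, the laminin chains, both fibrillins, the tenascins Tnc, Tnn, Tnr and Tnxb, and the genes Fn1 (fibronectin), Vcan (versican) and Eln (elastin). There were 64 such genes among 21951 protein-coding genes. A peak belonged to a gene when its summit lay inside the gene body or in the promoter window, which ran from 2 kb before to 1 kb after the transcription start site (TSS) of any of its protein-coding transcripts, whatever its FDR. By this rule 82 of the 17149 listed GLI3 peaks belonged to the matrix genes. The distance of a peak to the TSS of its gene runs to the nearest of these TSSs. It can therefore be a different TSS for different peaks of the same gene. Forelimb buds were taken from E10.5 mouse embryos with 32 to 35 somites and a mixed strain background. GLI3 carried a FLAG tag at the endogenous locus in these mice, although the genotype label reads wild type. There were 2 ChIP libraries, in each of which 2 litters of limb buds were pooled, and 1 input library of chromatin that was not immunoprecipitated. The 3 libraries shared the stage, the strain background and the genotype label. The data were 1 joint list of peaks with no value per replicate, so no value below carries a replicate error and no difference could be compared with replicate variation. Intervals are 95% Wilson intervals and cover counting error over genes, peaks or windows only. Neither RNA nor cell identity was measured in this list, so the tissue label was not checked against marker genes, and peaks from limb mesenchyme, ectoderm, muscle precursors and vessels cannot be told apart.

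Collagens are secreted or membrane proteins whose chains wind into triple helices. The fibrillar types form the ropes of cartilage, bone, tendon and skin, the FACIT types sit on the surface of those fibrils, type IV collagen and the laminins build basement membranes, and fibrillins and elastin build elastic fibres. In the early limb bud the mesenchyme lies in a loose matrix rich in fibronectin, versican and hyaluronan beneath the basement membrane of the ectoderm, and a cartilage matrix follows as the skeletal elements condense. GLI3 is a zinc-finger transcription factor of the Hedgehog pathway that acts in the limb bud mainly as a repressor and binds DNA at sequences close to GACCACCCA.

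GLI3 peaks, taken as those with an FDR (a q-value) under 0.05, lay at 19 of the 64 matrix genes. They were 4 fibrillar collagen genes (Col1a2, Col2a1, Col5a1, Col11a1), the FACIT collagen genes Col9a1 and Col19a1, the transmembrane collagen genes Col23a1 and Col25a1, Col26a1, Col28a1, the laminin genes Lama4, Lamb1 and Lamc1, all 3 elastic fibre genes (Fbn1, Fbn2, Eln), Tnc, Fn1 and Vcan. Another 13 genes had only listed peaks with a higher FDR, and 32 had no listed peak. Of the 82 listed peaks, 31 passed the threshold, a share of 37.8% (28.1 to 48.6), whereas 42.5% of all 17149 listed peaks did. Among the matrix genes 29.7% (19.9 to 41.8) had a GLI3 peak, and 20.6% of all protein-coding genes had one by the same windows. The matrix genes were long, with a median span of 111 kb, as opposed to 17.4 kb for all protein-coding genes, and the share by length is given further below. The highest peak was at Col9a1, with a maximum log2 fold enrichment over input of 3.90, and the lowest of the 31 at Col23a1, with 2.35.

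**Figure D1:**
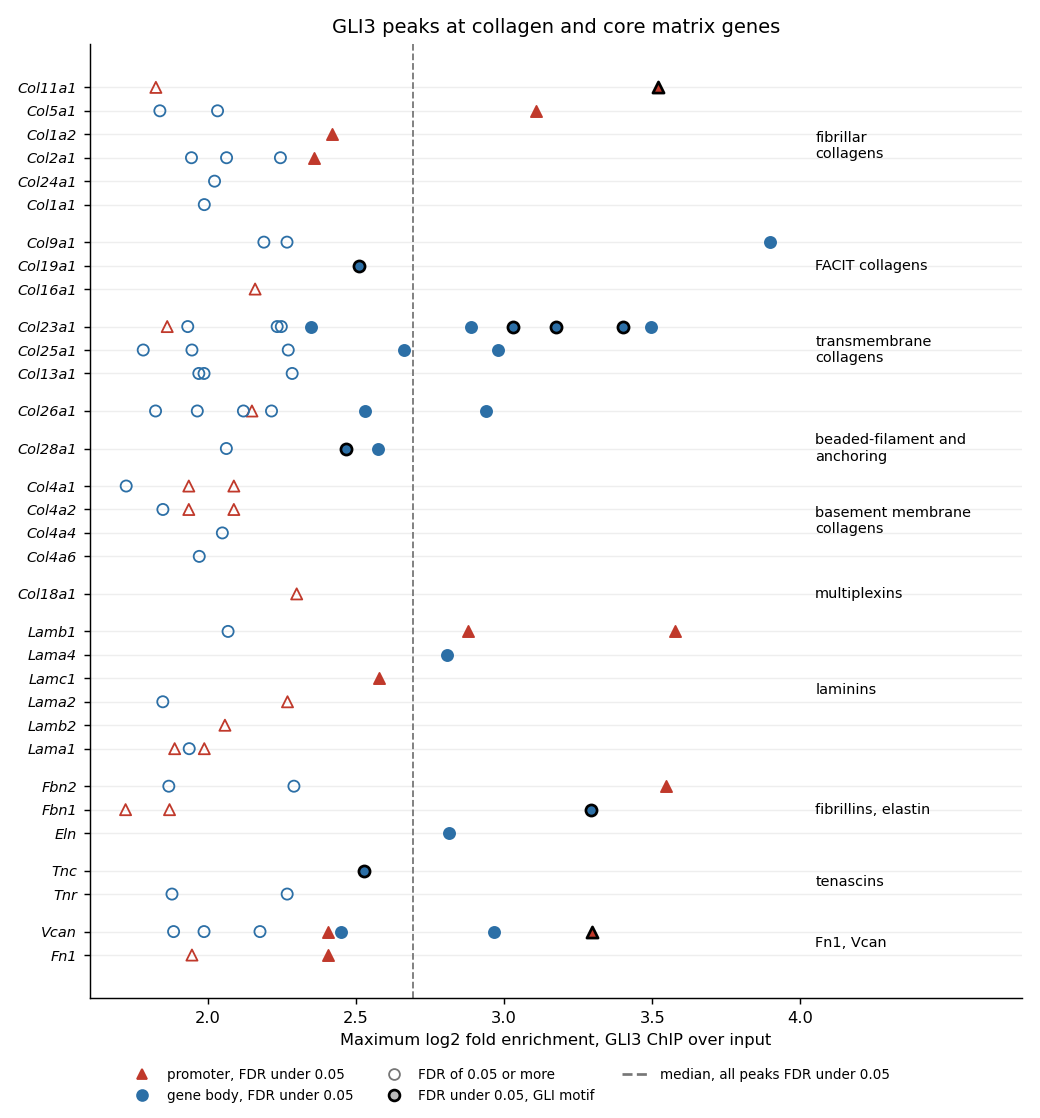
Each point is 1 listed GLI3 peak at a collagen or core matrix gene, placed by its maximum log2 fold enrichment of ChIP over input (horizontal axis), with 1 row per gene and genes grouped by family. Triangles are promoter peaks, circles gene body peaks, and filled symbols have an FDR under 0.05. Black outlines mark a GLI motif at filled symbols only, and matches at open symbols are not marked. The dashed line is the median of all GLI3 peaks (2.69). The 2 peaks in the shared promoter of Col4a1 and Col4a2 are drawn in both rows. The filled points run from 2.35 to 3.90, and Col23a1 has the most.

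The 31 GLI3 peaks ran from the threshold to a log2 fold enrichment of 3.90, the best at rank 319, while the whole list reached 6.37. Their median log2 fold enrichment was 2.88 (interquartile range 2.52 to 3.23), and that of all 7282 GLI3 peaks was 2.69 (interquartile range 2.47 to 3.06). The median matrix peak stood at percentile 64.7 of all GLI3 peaks by log2 fold enrichment, with an order-statistic interval of 33.6 to 77.8 that takes in the midpoint. By the Poisson p-value it stood at percentile 54.6. Among the 31 peaks, 10 (32.3%) were at or above 3.06, the upper quartile of all GLI3 peaks. The 1000 highest-ranked of the 7282 GLI3 peaks held 6 of the 31, at Col9a1, Lamb1, Fbn2, Col11a1 and Col23a1, the last with 2 of them. An FDR listed as 0 was found for 18 of the 31, and 23 had an FDR under 0.01. The shares over all 7282 GLI3 peaks were not counted, but ranks place them. The FDR was 0 at rank 2944 (Lama4) and 0.000315 at rank 3052 (Itga11, an integrin gene outside the rule). It was 0.00706 at rank 4912 (Tnc) and 0.0114 at rank 5099 (Col19a1). At the threshold, the last peak inside was the lowest of Col23a1 (log2 fold enrichment 2.35, FDR 0.0374) and the next outside was at Col18a1 (2.30, FDR 0.0704).

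The sites nearest to the GLI consensus are printed first, because 9 of the 31 GLI3 peaks held a match to GACCACCCA or its reverse complement TGGGTGGTC with at most 1 mismatch in the window of 250 bp to either side of the summit. The only exact match was in intron 6 of Fbn1, the gene of the main microfibril protein, 13 bp from the summit. The others shown are the 5 peaks of highest enrichment with 1 mismatch, at the promoters of Col11a1 and Vcan and in 3 introns of Col23a1. The matched 9 bases are in capitals and the 40 bases to each side in lower case, 5′ to 3′ on the strand that reads as the consensus. The bases come from the GRCm38 (mm10) genome. Substitutions count from 1 at the 5′ end of the consensus, with the consensus base first.
Fbn1, intron 6, chr2:125436360-125436448, minus strand, exact match: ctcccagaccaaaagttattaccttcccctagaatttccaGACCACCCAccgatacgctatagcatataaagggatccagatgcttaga
Col11a1, promoter, chr3:114030516-114030604, plus strand, A2C: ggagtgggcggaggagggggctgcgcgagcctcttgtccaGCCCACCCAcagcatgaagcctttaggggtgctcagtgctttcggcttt
Col23a1, intron 2, chr11:51411053-51411141, plus strand, C7A: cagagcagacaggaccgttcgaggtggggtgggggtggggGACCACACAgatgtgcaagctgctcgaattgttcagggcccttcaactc
Vcan, intron 1 within the promoter window, chr13:89741543-89741631, plus strand, C7A: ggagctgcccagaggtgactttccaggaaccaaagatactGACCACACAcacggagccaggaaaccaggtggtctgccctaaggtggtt
Col23a1, intron 5, chr11:51533449-51533537, plus strand, A2G: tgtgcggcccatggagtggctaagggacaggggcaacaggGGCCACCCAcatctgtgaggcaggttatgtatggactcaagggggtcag
Col23a1, intron 3, chr11:51523141-51523229, plus strand, G1C: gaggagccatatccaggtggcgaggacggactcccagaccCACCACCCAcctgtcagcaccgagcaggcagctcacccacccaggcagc
The Col11a1 site lay 68 bp from its summit, the Vcan site 90 bp, and the Col23a1 sites 200, 61 and 167 bp in the order shown. The substitution fell at position 1 or 2 of the consensus in 3 of these 5 sites and at position 7 in the other 2, at Col23a1 and Vcan. A match is a description of the letters in the window and does not show that GLI3 was bound there.

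Of the 11 fibrillar collagen genes, 4 had a GLI3 peak, each with 1 peak and each in the promoter. Col11a1 encodes a chain of type XI collagen, on which cartilage fibrils are nucleated. Its peak (chr3:114030050-114030899) had a log2 fold enrichment of 3.52 and a summit 48 bp upstream of the TSS. Col5a1 encodes a chain of type V collagen, which has the same nucleating part in skin and tendon, and its peak (chr2:27886050-27886599) reached 3.11 with the summit 118 bp upstream. Col1a2, for a chain of the type I collagen of bone, tendon and skin, had a weaker peak (chr6:4505250-4505749) of 2.42 (FDR 0.0208), 36 bp upstream of a TSS. Col2a1, for the main collagen of cartilage, had one of 2.36 (chr15:98004250-98004999, FDR 0.0374), 2 bp from the TSS. The last 2 lay near the low end of the GLI3 peaks and the first 2 above their median of 2.69. Col1a1, for the other type I chain, and Col24a1 had only listed peaks above the FDR threshold (1.99 and 2.02), and Col3a1, Col5a2, Col5a3, Col11a2 and Col27a1 had none. The nearest GLI3 peak to Col1a1 was 7122 bp away and to Col11a2 7635 bp, whereas it was 432996 bp for Col3a1 and 495779 bp for Col5a2.

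The RefSeq promoters (GRCm38.p6, 250 bases before to 50 bases after the start) of 3 matrix genes with a strong promoter peak are shown, because each of these summits fell within these 300 bases. The capitals mark GGGCGG (a GC box) and CCAAT on either strand.
Col11a1, chr3:114030290-114030589, plus strand: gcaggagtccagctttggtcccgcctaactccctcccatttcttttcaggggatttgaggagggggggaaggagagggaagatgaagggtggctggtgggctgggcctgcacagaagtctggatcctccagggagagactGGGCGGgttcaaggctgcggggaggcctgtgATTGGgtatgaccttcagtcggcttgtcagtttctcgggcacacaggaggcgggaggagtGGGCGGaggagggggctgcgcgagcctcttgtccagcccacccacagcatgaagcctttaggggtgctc
Col5a1, chr2:27886175-27886474, plus strand: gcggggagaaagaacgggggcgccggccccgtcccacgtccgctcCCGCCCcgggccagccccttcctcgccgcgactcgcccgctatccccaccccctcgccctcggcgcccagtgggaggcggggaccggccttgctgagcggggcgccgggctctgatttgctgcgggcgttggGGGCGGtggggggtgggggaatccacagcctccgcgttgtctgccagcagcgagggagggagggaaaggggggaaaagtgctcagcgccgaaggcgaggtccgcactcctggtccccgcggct
Lamb1, chr12:31265043-31265342, plus strand: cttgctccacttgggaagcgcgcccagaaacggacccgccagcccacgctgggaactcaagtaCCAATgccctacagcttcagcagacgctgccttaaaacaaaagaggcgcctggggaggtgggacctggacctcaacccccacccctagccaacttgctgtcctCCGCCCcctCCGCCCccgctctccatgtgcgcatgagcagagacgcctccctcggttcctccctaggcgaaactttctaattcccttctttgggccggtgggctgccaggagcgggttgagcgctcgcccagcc
The summit was at base 203 of the Col11a1 promoter, at base 133 of the Col5a1 promoter and at base 215 of the Lamb1 promoter, where the lower of 2 Lamb1 peaks lay. Each holds 2 GC boxes, and the Col11a1 and Lamb1 promoters hold 1 CCAAT each. The 1-mismatch GLI site printed above lies near the 3′ end of the Col11a1 promoter, downstream of both GC boxes. RefSeq promoters matched 46 of the 64 matrix genes, with 51 promoters. GGGCGG was in 30 of the 51 (58.8%) and in 35.7% of all 32851 promoters of this length, CCAAT in 16 (31.4%) and in 37.4% of all, and a GLI match with at most 1 mismatch in 1 (1.96%), that of Col11a1, and in 6.74% of all.

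The FACIT collagen genes held the highest peak of all matrix genes. Col9a1 encodes a chain of type IX collagen, which coats cartilage fibrils. Its peak (chr1:24196050-24196499) had a log2 fold enrichment of 3.90, rank 319 in the list. The summit lay 18647 bp into the gene, in intron 7, and 1070 bp downstream of the TSS of a shorter protein-coding transcript, so that it missed the promoter window by 70 bp. This transcript starts inside the gene, and a short form of this kind is known from eye tissue. The 250 bp to either side of the summit had a GC content of 53.9% and no GLI match. Another 2 listed peaks in Col9a1 did not pass the threshold (2.27 and 2.19). Col19a1, for a fibril-associated collagen known from muscle and its innervation, had a peak in intron 2 (chr1:24569600-24569899) of 2.51 (FDR 0.0114) with a GLI match 11 bp from the summit, and 84.6% of its window was marked as repeat, the highest share among the 31. Col9a2 and Col9a3, for the other 2 chains of type IX collagen, had no listed peak, and the nearest GLI3 peak lay 22093 bp from Col9a2 and 8138 bp from Col9a3.

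The transmembrane collagen genes carried more GLI3 peaks than any other family, 8 of the 31, all in gene bodies and none in a promoter. Col23a1 held 6 of them. It encodes type XXIII collagen, which is anchored in the cell membrane and can be shed from it. Along the 294 kb gene its peaks had log2 fold enrichments, from 5′ to 3′, of 2.35, 3.40 and 2.89 in intron 2, of 3.03 in intron 3, and of 3.17 and 3.49 in intron 5. They spanned 154 kb, and the nearest to the TSS of the gene was 100057 bp from it. The 3 at 3.40, 3.03 and 3.17 held a GLI match and the other 3 did not, among them the highest (chr11:51543400-51543949). Only 40 of the 21951 protein-coding genes (0.182%) had 6 or more GLI3 peaks by the same windows, 27 of them among the 2492 genes of 100 kb or more. The peak at the Col23a1 promoter itself was listed at 1.86 with an FDR of 1. For 4 of the 6 peaks the nearest TSS was that of Phykpl, an enzyme gene downstream, at 41115 to 95725 bp, and not the TSS of Col23a1.

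Col25a1 and Col26a1 followed the same layout, with GLI3 peaks inside the gene and none in the promoter. Col25a1 encodes another transmembrane collagen, known from nerve-muscle contacts and from amyloid plaques. It had a peak of 2.98 in intron 4 (chr3:130413200-130413549) and one of 2.66 (FDR 0.00228) in the annotated gene span, 19094 bp before its nearest protein-coding TSS. Col13a1, the transmembrane collagen of the neuromuscular junction, had 3 listed peaks, the highest at 2.28, none of which passed the threshold. Col26a1 had peaks of 2.94 in intron 3 (chr5:136811000-136811349) and 2.53 in intron 1 (chr5:136861250-136861599, FDR 0.00706), and 5 more listed peaks above the threshold. Col28a1, for a collagen of peripheral nerve sheaths, had peaks of 2.57 in intron 23 (FDR 0.00704) and 2.47 in intron 13 (FDR 0.0114), the latter with a GLI match 43 bp from the summit. The genes of type VI and type VII collagen, grouped with Col28a1 as beaded-filament and anchoring collagens, had no listed peak.

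**Figure D2:**
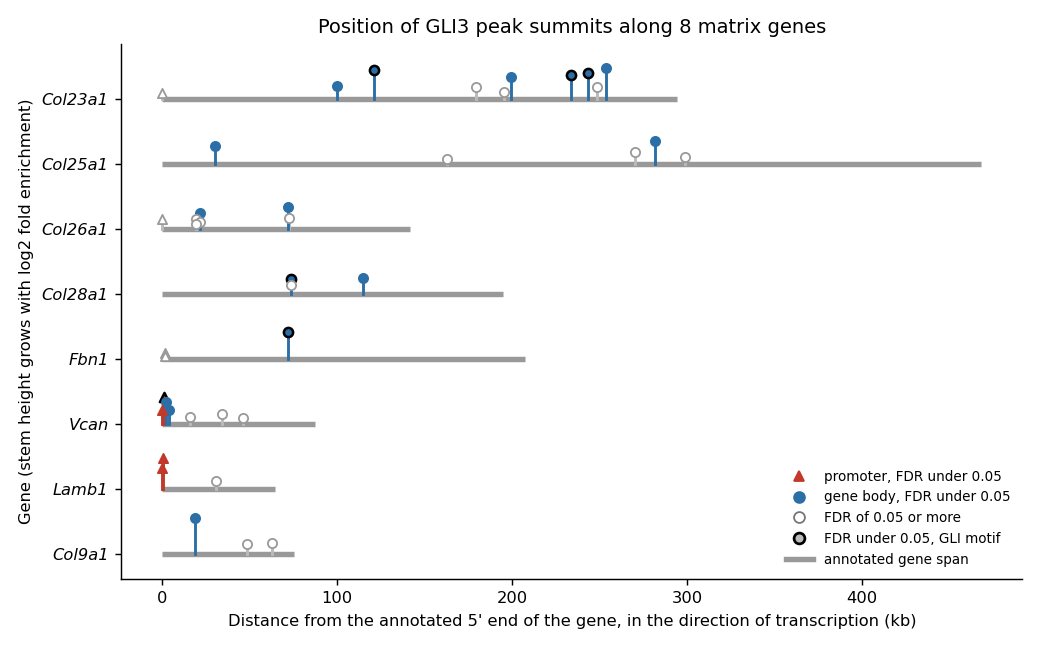
Peak summits along 8 matrix genes, by distance from the annotated 5′ end in the direction of transcription (kb). Grey bars are the gene spans, each stem grows with the log2 fold enrichment, triangles are promoter peaks and circles gene body peaks. Open symbols have an FDR of 0.05 or more. Black outlines mark a GLI motif at filled symbols only, and matches at open symbols are not marked. The 6 filled points of Col23a1 spread over 154 kb inside the gene, whereas the 4 of Vcan and the 2 of Lamb1 sit at the 5′ end.

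Among the basement membrane genes, 3 of 11 laminin genes and 0 of 6 type IV collagen genes had a GLI3 peak, a difference that was not tested. Lamb1 encodes the β1 laminin chain found in most basement membranes. Its peaks were 100 bp apart and their summits 595 bp. The first, of log2 fold enrichment 2.88, was in the 5′ UTR, 23 bp downstream of a TSS (chr12:31265100-31265549). The other, of 3.58, was in intron 2, 559 bp downstream of a different TSS (chr12:31265650-31266149). By the RefSeq start used for the promoter printed above, the first summit lay upstream. Lamc1, for the γ1 chain that pairs with it, had a promoter peak of 2.58 (chr1:153332800-153333299, FDR 0.00704), 356 bp upstream. Lama4, for an α chain of vessel and mesenchymal basement membranes, had a peak of 2.81 in intron 1 (chr10:38973100-38973299), 7697 bp from the TSS, in the most AT-rich window of the 31 (39.1% GC). The other 8 laminin genes had no GLI3 peak. Among them, Lama2 had a listed promoter peak of 2.27 with an FDR of 0.0704, 184 bp upstream. An intron 5 peak of Lama1 was listed at only 1.94 (FDR 0.727), although the −log10 of its Poisson p-value was 40.8, and 61.3% of its window was marked as repeat. None of the 6 type IV collagen genes passed the threshold, and 4 of them had listed peaks, 6 in all. Col4a1 and Col4a2 lie head to head and share their promoter, which held 2 listed peaks at 2.09 and 1.93. A further listed peak in intron 4 of Col4a2 held the exact GLI consensus at a log2 fold enrichment of 1.85 and an FDR of 1.

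All 3 elastic fibre genes had a GLI3 peak, in each case 1. Fbn2, for the fibrillin of embryonic microfibrils, whose loss in mice fuses digits, had a promoter peak of 3.55, 320 bp upstream of the TSS. Fbn1, for the main fibrillin after birth, had its peak of 3.29 in intron 6 (chr2:125436100-125436699), 69968 bp from its nearest TSS. This was the peak with the exact GLI consensus, and the −log10 of its Poisson p-value, 66.3, was the highest of the 31. Both Fbn1 peaks listed in the promoter window had an FDR of 1 (1.87 and 1.72). Eln, for elastin, had a peak of 2.81 in intron 9 (chr5:134728450-134728849), 18616 bp from the TSS.

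Vcan had 4 GLI3 peaks, and Fn1 and Tnc had 1 each. Versican is the large chondroitin sulfate proteoglycan around mesenchymal cells before cartilage forms. Its peaks lay within 3.9 kb at the 5′ end of the gene. The peak of 2.41 (log2 fold enrichment, FDR 0.0208) was 58 bp upstream of the TSS at the 5′ end of the gene. Measured from another TSS, inside the gene, there were peaks of 3.30 at 747 bp downstream, 2.96 at 1612 bp and 2.45 at 3357 bp (FDR 0.0208). The peak of 3.30 lay in the promoter window of this inner TSS. The highest was the one with the GLI match (chr13:89741050-89742099), and the outer 2 were the lowest. With 4.59 GLI3 peaks per 100 kb Vcan was the densest of the matrix genes, ahead of Col2a1 (3.44) and Lamb1 (3.11). These values divide all peaks of a gene, those just upstream included, by the length of its body. That of Col2a1 rests on 1 upstream peak at a gene of 29.1 kb. Only 135 protein-coding genes (0.615%) had 4 or more. Fn1, for fibronectin, on which mesenchymal cells spread and condense, had a promoter peak of 2.41 (chr1:71653250-71653449, FDR 0.0208), 172 bp upstream. Tnc, for a tenascin of condensing cartilage and tendon, had a peak of 2.53 in intron 24 (chr4:63963400-63963649, FDR 0.00706), 57203 bp from the TSS, with a GLI match 74 bp from the summit. Of the other 3 tenascin genes, Tnr had 2 listed peaks above the threshold (the higher at 2.27), and Tnn and Tnxb had none.

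The 45 matrix genes without a GLI3 peak were not all far from one. Listed peaks with a higher FDR were found at 13 of them, led by Col18a1 (2.30), Col13a1 (2.28), Lama2 (2.27), Tnr (2.27) and Col16a1 (2.16). Within 100 kb of a TSS, 18 of the 45 had a GLI3 peak and 27 had none. The nearest outside the windows was 3759 bp from Col7a1, upstream of the gene, followed by 3893 bp from Lamc3, downstream of it, and the farthest was 1026910 bp from Col22a1. Counting every GLI3 peak within 100 kb of a TSS, 37 of the 64 matrix genes (57.8%) had one, and 52.2% of all protein-coding genes did.

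The share of genes with a GLI3 peak rose with gene length in the whole genome, from 13.9% of genes under 20 kb to 24.9% of genes of 20 to 100 kb and 39.0% of genes of 100 kb or more. Among the matrix genes it was 0 of 5 (interval up to 43.4%), 8 of 24 (33.3%, 18.0 to 53.3) and 11 of 35 (31.4%, 18.6 to 48.0) in the same classes. Each of these intervals contains the share of all genes. Given the lengths of the 64 genes, the shares of all genes would give 20.3 genes with a peak, and 19 were found. Per length, the matrix genes of 100 kb or more had 0.273 GLI3 peaks per 100 kb, and all such genes had 0.274. Those of 20 to 100 kb had 0.991 and all such genes 0.704, and those under 20 kb had 0 and all such genes 2.04. Over all lengths together the matrix genes had 0.376 and all protein-coding genes 0.567. Without Col23a1 the matrix genes of 100 kb or more had 0.195 per 100 kb and those of all lengths 0.314. Promoter peaks were found at 9 of the 64 matrix genes (14.1%, 7.58 to 24.6) and at 17.0% of all protein-coding genes. The 19 genes with a peak had a median length of 141 kb and the 45 without one of 105 kb.

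**Figure D3:**
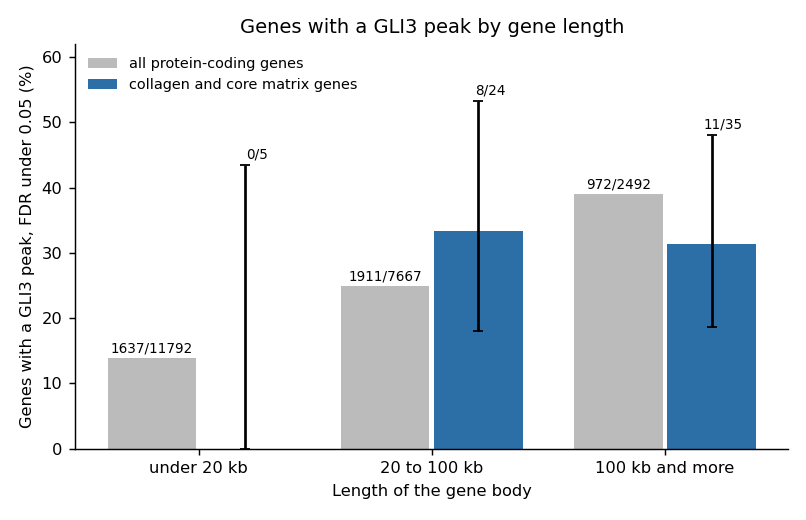
Share of genes with a GLI3 peak at an FDR under 0.05 (vertical axis, %) in 3 classes of gene length, for all protein-coding genes (grey) and the collagen and core matrix genes (blue), with the counts above the bars. Error bars are 95% Wilson intervals. The matrix genes stand at 0 of 5, 8 of 24 and 11 of 35, and each interval contains the grey bar beside it.

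Most GLI3 peaks at matrix genes lay inside the genes. Of the 31, 11 were promoter peaks (35.5%, 21.1 to 53.1) and 20 were in gene bodies only. Among all GLI3 peaks in a promoter or gene body, 70.0% (68.7 to 71.2) were promoter peaks. Without the 6 peaks of Col23a1 the matrix share was 44.0%. Peaks in gene bodies only numbered 0.243 per 100 kb of matrix genes and 0.173 per 100 kb of all genes, and without Col23a1 the matrix genes had 0.176. By length these were 0.413 and 0.161 for genes of 20 to 100 kb, the matrix value resting on 5 peaks at Col9a1, Eln, Tnc and Vcan, and 0 and 0.243 for genes under 20 kb. For genes of 100 kb or more they were 0.215 and 0.169, and the matrix value was 0.135 without Col23a1. None of these differences was tested. The part of gene length in the promoter share was not tested. By place, 21 of the 31 summits were in introns, 5 of these in intron 1, 7 were upstream, 2 were in the gene span outside protein-coding transcripts and 1 was in a 5′ UTR. Promoter summits were 2 to 747 bp from the TSS, 8 of them upstream and 3 downstream. The summits in gene bodies were 1070 to 253722 bp from it, with a median of 70986 bp, and 6 of them were nearer to the TSS of another protein-coding gene. None of the 31 lay in the promoter window of another protein-coding gene, while 5 had the start of a noncoding or other annotated gene in their window, at Fbn2, Col5a1, Vcan, Col1a2 and Fn1. The median log2 fold enrichment was 2.88 for the promoter peaks and 2.85 for the gene body peaks, against 2.69 and 2.68 for all GLI3 peaks of these kinds.

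The GLI motif was found at 9 of the 31 summits (29.0%, 16.1 to 46.6) and in 11.3% (5.58 to 21.5) of the windows 2 kb to either side. Over all GLI3 peaks it was at 20.8% of summits and in 10.7% of the windows to either side. In gene bodies it was at 7 of 20 matrix peaks (35.0%, 18.1 to 56.7) and at 23.1% (21.2 to 25.3) of all gene body peaks, and in promoters at 2 of 11 (18.2%, 5.14 to 47.7) and at 17.7% of all promoter peaks. These intervals contain the shares of all peaks. Without Col23a1 the gene body count was 4 of 14 (28.6%). In 7 of the 9 peaks the nearest match was within 100 bp of the summit. This distance was not counted over all GLI3 peaks with a match, so the 7 cannot be set against them. The 51 listed matrix peaks above the FDR threshold held a match in 8 cases (15.7%), and such peaks of the whole list in 15.7%.

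**Figure D4:**
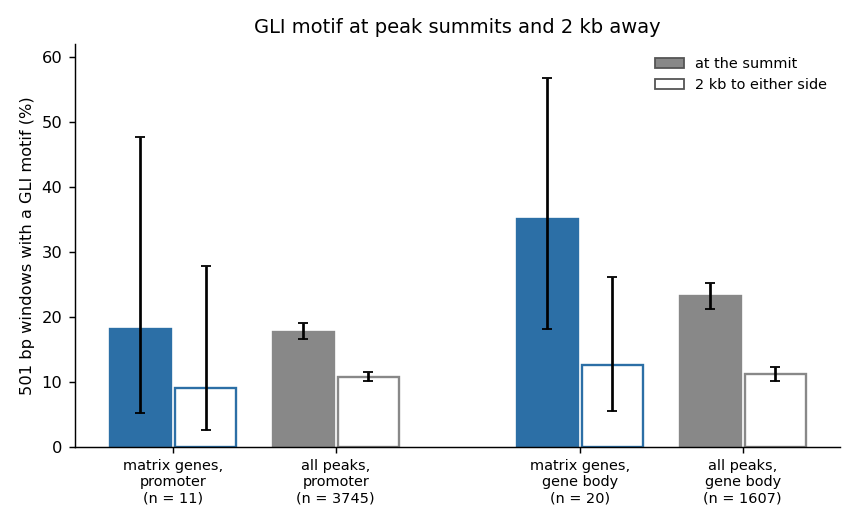
Share of windows (250 bp to either side of a point) with a GLI motif (vertical axis, %) at GLI3 peak summits (filled bars) and 2 kb to either side (open bars), for matrix genes (blue) and all GLI3 peaks (grey), split into promoter and gene body peaks. Error bars are 95% Wilson intervals. The matrix gene body peaks stand at 35.0% of 20 windows and the matrix promoter peaks at 18.2% of 11, both with intervals that contain the grey bar for all peaks.

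In base composition the matrix peaks lay below the list as a whole. Their windows had a median GC content of 54.1%, and all GLI3 peaks 58.7%. The promoter peaks had 60.7% and a CpG ratio (observed to expected) of 0.595, as opposed to 65.9% and 0.831 for all promoter peaks. The gene body peaks had 49.4% and 0.210, as opposed to 50.9% and 0.294. Among the 11 matrix promoter peaks, GGGCGG was in 10 windows (83.9% of all promoter peaks), CCAAT in 9 (39.3% of all), ACAAAG, the core of SOX sites, in 2 (20.6%), TAATTA, a homeodomain core, in 1 (2.94%), and CAGCTG, an E-box, in none (23.8%). In the 20 gene body peaks CAGCTG was in 9 (38% of all gene body peaks), ACAAAG in 8 (35.2%), CCAAT in 7 (47.5%), TAATTA in 4 (21%) and GGGCGG in 3 (30.1%). In the windows 2 kb to either side, CCAAT was in 59.1% for the matrix promoter peaks and in 48.6% for all promoter peaks. These counts rest on 11 and 20 windows and none was tested.

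Genes that make, modify, link or bind this matrix were counted by the same windows, from a list of 63 chosen for function. A GLI3 peak was found at 25 of them (39.7%), beside the 20.6% of all protein-coding genes. They were 8 of 18 genes of collagen synthesis and crosslinking, 2 of 13 for proteoglycans and hyaluronan, 5 of 11 for microfibril and basement membrane linkers and 10 of 21 for receptors. The highest peaks were at Agrn (4.01), for the basement membrane proteoglycan agrin, at Itga8 (3.79), for an integrin chain, and at Loxl2 (3.71), for an enzyme that crosslinks collagen. Next came Pcolce (3.55), whose product enhances the trimming of procollagen, Has2 (3.51), for the hyaluronan synthase of the limb bud, and Fbln1 (3.34), for fibulin-1. P4ha1 (3.33), for the prolyl hydroxylase that stabilises the triple helix, Itga9 (3.27, with 3 peaks), Nid1 (3.26, with 2 peaks), which links laminin to type IV collagen, and Ddr2 (3.19), a receptor for fibrillar collagen, completed the 10 highest. Gene lengths differed between these groups and were not taken into account in these counts.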

How the data were processed

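Peaks came from 1 CisGenome list attached to the record of ChIP replicate 1. By the methods of the study both replicates and the input entered the call, which the list itself does not state. The labels name mm10 and Bowtie2 2.2.5. The list deposited by the authors gives an FDR (a q-value), the maximum log2 fold enrichment over input, a T score and the lowest Poisson p-value as −log10 (which stops at 100) for each peak. Peak lengths are multiples of 50 bp. The methods give only a lower bound on sequencing depth and the list holds no read totals, so the exact depth of each library, and the precision of single values, could not be computed here.

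Summits were placed on GENCODE M21 basic genes (GRCm38) with Python 3.11.15, pandas 2.3.3 and pysam 0.24.0, coordinates being used as listed. GC content, repeats (soft-masked bases) and motifs were read from the 250 bp to either side of each summit. The search was tested on simulated peaks. All genes with a GLI3 peak are named, with the 5 highest of the genes that had listed peaks only above the threshold and the 10 highest associated genes. The genes, lists and motifs were chosen with earlier results of these data known. Col7a1, Lamc3 and other genes without peaks are named outside this rule, after their values were seen. No test was run, since no value per replicate exists. Where a position was needed, 5 listed peaks could not be used because they lie on unplaced sequence.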

Additional observations from a re-analysis of the deposited data

How the results depend on the processing

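No paired analysis was possible because replicates have no values of their own in the deposited list, and for the same reason no replicate could be left out. The alternatives gave 58 values for 7 results, of which 54 stayed the same by the rule used and 4 moved further. The rule was the counting or order-statistic interval of the result, and a factor of 1.5 for counts of peaks and genes. The count of peaks in the promoter window of another gene was 0 and had to stay equal. For that reason, leaving such peaks out repeated the main values by construction. The 54 are therefore not 54 separate checks. When every listed peak was counted, the matrix genes had 82 peaks at 32 genes with a median log2 fold enrichment of 2.22. With the exact GLI consensus the motif share was 3.23%. In both cases the alternative itself sets the change, since it admits weaker peaks or fewer sequences. Among the others, an FDR under 0.01 left 23 peaks at 15 genes, and a promoter window of 5 kb upstream gave 32 peaks at 20 genes, Col7a1 being added. Motif windows of 100 bp or 500 bp to either side of the summit, and the whole peak, gave shares of 22.6%, 41.9% and 25.8%. A wider window holds more positions to match, and these windows were not applied to all GLI3 peaks. Leaving out Col23a1, and counting summits within 1 kb as 1 region (29 regions), were chosen after seeing the data. The missing read totals, the joint call and the small number of peaks limit every share given here.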
